A study of Mus musculus with 6 samples.

Results

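The Krüppel-like factors (KLFs) are transcription factors that bind GC-rich and CACCC sequences through zinc fingers at the end of the protein. Accessible chromatin was described at 8 KLF genes (Klf3, Klf4, Klf5, Klf6, Klf7, Klf9, Klf10 and Klf13) of 21765 protein-coding genes, in sorted cells of the mouse olfactory epithelium before and after injury. The genes were taken by name, and cut sites of the transposase were counted within 1 kb of each annotated start and in 500 bp tiles of the gene body plus 100 kb on each side. The labels describe the cells as horizontal basal cells (HBCs), which lie on the basal lamina of this epithelium and act as its stem cell reserve. Uninjured controls (3 libraries) were compared with mice given methimazole, an antithyroid drug that destroys the olfactory epithelium above the HBCs, by intraperitoneal injection and collected after 24 h (3 libraries). All animals of both groups had the genotype Krt5CreER; Rosa26LSL-YFP/LSL-YFP, in which a keratin 5 promoter drives the recombinase that turns on YFP, so that YFP marks cells that were keratin 5-positive at recombination and also their descendants. In both groups the mice of replicate 1 were 8 weeks old, those of replicate 2 were 6 weeks and those of replicate 3 were 6 to 7 weeks. Each library comes from the epithelium of different mice, so before and after injury stand for separate animals. YFP-positive cells that excluded propidium iodide were sorted from dorsal epithelium before nuclei were tagged.

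In epithelia the family is known for balancing growth and differentiation. Klf5 is found in dividing basal layers, Klf4 in cells that leave the cycle and build the barrier, and Klf6 is an early response gene. Klf7 is known from sensory neurons, including those of the olfactory system, where it acts in axon growth. Klf3 is a repressor that recruits the CtBP corepressors, and Klf9, Klf10 and Klf13 carry a domain that binds the SIN3A corepressor. Klf9 is induced by glucocorticoids and thyroid hormone, and Klf10 by TGF-beta. Accessibility of a promoter or a distal tile is not a measure of RNA or protein.

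The 4476 barcodes with at least 2000 fragments held between 14825320 and 44875242 cut sites per library. Uninjured replicate 3 and injured replicate 3 shared 34 barcodes, at which 97.4% of the cut sites of the smaller partner were identical, while other pairs of libraries shared at most 4. A single barcode held 14.7% of the cut sites of injured replicate 2, and it was also found in injured replicate 1 and in uninjured replicates 1 and 2. Results at the KLF genes are therefore given also without such barcodes and without both replicate 3 libraries. Of the barcodes of a library, between 63% and 93.3% fell in clusters called HBC-like from a marker list, and injured replicate 3 had the lowest share, with 12.2% neuron-like and 10.9% precursor-like cells against at most 5.72% and 5.51% elsewhere. The 8 HBC markers together were lower after injury (525 to 591 against 618 to 713 cut sites over gene bodies per 1000000 of the library, with 4 of 8 markers lower without overlap and none at 0). Of the other 8 lists, those of Bowman's gland (39.6 to 45.7 against 55.4 to 61) and of stromal and vascular cells (160.4 to 167 against 168 to 176) were also lower without overlap, and their part in the results was not tested. In summed libraries, fewer cells of a type and less accessibility per cell cannot be told apart, so the HBC-like cells, including those of cluster 2 (described below), are also given alone.

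Most tiles that changed at the KLF genes lay outside the promoters. Sequences of 150 bases are shown for 9 of those named below, taken at the part of each 500 bp tile that held most cut sites, so that tiles that were higher, with and without an AP-1 site, can be set beside tiles that were lower. All are from GRCm38, plus strand, 5′ to 3′, and none overlaps an annotated exon. Capitals mark each match to TGANTCA, the AP-1 site, which reads the same on both strands. The distance in each name is from the middle of the tile to the 5′-most start of the gene, along the direction of the gene. The first 7 tiles were higher after injury.
Klf5 tile 75.1 kb downstream, chr14:99373808-99373957: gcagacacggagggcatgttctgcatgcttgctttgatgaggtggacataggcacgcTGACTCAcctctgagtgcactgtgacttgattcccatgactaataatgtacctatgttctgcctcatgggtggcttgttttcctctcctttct
Klf6 tile 23.7 kb upstream, chr13:5837541-5837690: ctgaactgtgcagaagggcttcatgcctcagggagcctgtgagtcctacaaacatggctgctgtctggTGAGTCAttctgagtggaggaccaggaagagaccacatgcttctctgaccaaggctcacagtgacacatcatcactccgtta
Klf6 tile 31.3 kb downstream, chr13:5892839-5892988: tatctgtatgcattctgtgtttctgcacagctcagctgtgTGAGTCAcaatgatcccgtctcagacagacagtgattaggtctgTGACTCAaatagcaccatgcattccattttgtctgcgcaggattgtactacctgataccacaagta
Klf7 tile 117 kb downstream, chr1:64005302-64005451: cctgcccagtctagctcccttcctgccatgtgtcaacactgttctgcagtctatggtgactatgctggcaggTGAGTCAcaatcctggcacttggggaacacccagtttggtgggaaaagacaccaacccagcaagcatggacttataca
Klf13 tile 122 kb downstream, chr7:63816835-63816984: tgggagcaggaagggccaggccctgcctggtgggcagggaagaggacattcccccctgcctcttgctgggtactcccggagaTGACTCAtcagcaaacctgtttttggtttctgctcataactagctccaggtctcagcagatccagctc
Klf9 tile 14 kb upstream, chr19:23127166-23127315: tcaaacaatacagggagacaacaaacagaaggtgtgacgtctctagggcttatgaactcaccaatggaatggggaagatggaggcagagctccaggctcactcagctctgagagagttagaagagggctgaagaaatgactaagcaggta
Klf10 tile 98.5 kb upstream, chr15:38399005-38399154: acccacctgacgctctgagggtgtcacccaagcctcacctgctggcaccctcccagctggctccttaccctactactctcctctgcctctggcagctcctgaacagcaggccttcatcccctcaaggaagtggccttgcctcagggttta
The next pair was lower after injury.
Klf3 tile 5.14 kb upstream, chr5:64798264-64798413: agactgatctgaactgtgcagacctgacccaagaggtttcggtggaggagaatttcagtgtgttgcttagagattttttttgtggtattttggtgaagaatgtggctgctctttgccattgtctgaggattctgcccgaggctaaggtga
Klf13 tile 60.3 kb upstream, chr7:63999313-63999462: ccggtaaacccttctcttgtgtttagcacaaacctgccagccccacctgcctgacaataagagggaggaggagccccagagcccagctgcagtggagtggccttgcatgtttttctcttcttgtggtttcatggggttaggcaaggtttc
The stretches at Klf5, Klf7 and Klf13 (122 kb downstream) held 1 AP-1 match each, as did that of Klf6 23.7 kb upstream, and that of Klf6 31.3 kb downstream held 2. Those of Klf9 and Klf10 and both stretches that were lower held none. Nor did the stretches of the named tiles not shown, among them the higher tiles of Klf6 4.77 kb downstream and Klf10 107 kb downstream. No match says only that these letters are not in the stretch.

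The sequence that KLF proteins themselves bind was present in most of the family's own promoters. RefSeq promoter entries of GRCm38.p6 matched 6 of the 8 genes (Klf3, Klf4, Klf6, Klf7, Klf9 and Klf13). The 250 bases before the start are shown for Klf4 and Klf9, which have many matches and none and lie outside exons, on the strand of the gene with capitals marking matches to CCNCNCCC on either strand.
Klf4 promoter, chr4:55532476-55532725, - strand: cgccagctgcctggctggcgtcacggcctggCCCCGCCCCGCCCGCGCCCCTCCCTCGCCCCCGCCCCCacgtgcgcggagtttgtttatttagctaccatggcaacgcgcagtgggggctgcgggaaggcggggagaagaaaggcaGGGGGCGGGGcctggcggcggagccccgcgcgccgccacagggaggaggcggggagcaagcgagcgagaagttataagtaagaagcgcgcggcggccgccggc
Klf9 promoter, chr19:23140976-23141225, + strand: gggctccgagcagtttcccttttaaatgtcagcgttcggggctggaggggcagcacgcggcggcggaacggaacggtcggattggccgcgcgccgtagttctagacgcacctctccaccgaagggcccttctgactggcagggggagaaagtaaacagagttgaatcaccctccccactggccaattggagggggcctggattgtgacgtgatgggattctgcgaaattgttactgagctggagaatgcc
The Klf4 stretch held 9 matches and the Klf9 stretch 0. Klf3 held 10, Klf7 held 8, Klf13 held 5 and Klf6 held 2. Overlapping matches were each counted, so these are not numbers of separate sites. The Klf7 entry belongs to a start 893 bp inside the gene from the start used for the windows, and the Klf3 entry to one 133 bp inside. The stretches of Klf3, Klf6 and Klf7 overlap annotated exons. Of all 32851 promoter entries of the same length, 45.9% held at least 1, and SP factors share this motif. The GC content of the 6 was between 59.2% and 78.4%, against a median of 52.4% over all entries.

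The KLF promoter windows were among the most open in the genome, and 1 of them changed after injury. The 12 promoter windows of the 8 genes held between 22.4 and 74.7 CPM in the group means (cut sites per 1000000, with library sizes normalised by trimmed mean of M values, TMM), and 11 of the 12 stood at percentile 89.9 or higher of all 22437 windows tested, by the mean of the 6 libraries. A single window, at the second start of Klf10, was lower after injury in edgeR's quasi-likelihood test and no member window was higher. Over all windows tested, 2.45% were called higher and 2.07% lower. The log2 change of the 12 windows ran from −0.42 to −0.03 with a median of −0.20, beside a median of 0.01 over all windows. In 8 of the 12 windows every injured library lay below every uninjured one, and in none above, where 14.7% of all windows were lower without overlap and 13.2% higher. The share of all cut sites that fell in promoter windows of coding genes moved in the same direction, from 31.8% to 33.7% in uninjured libraries and from 25.2% to 28.1% in injured ones, and its part in these values was not tested. Scaling to 10 kb bins of the genome shifted the median of all windows to −0.52, with 413 windows higher and 11194 lower, and all 12 member windows were then called. Scaling to total cut sites shifted it to −0.26, with 616 higher and 7216 lower, and 11 were called. Changes below are relative to the median window.

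**Figure D1:**
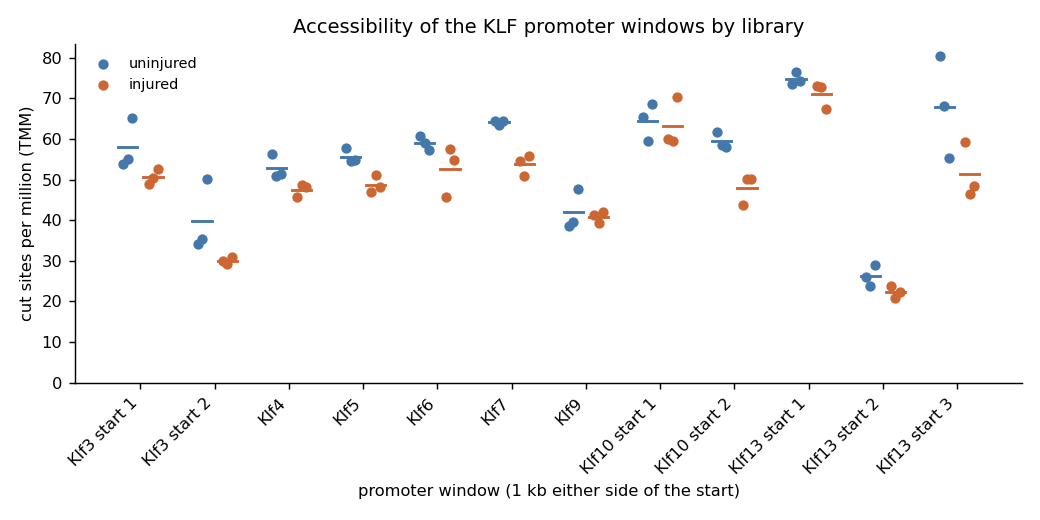
CPM (TMM) in the 12 promoter windows of the KLF genes, with 1 point per library and a bar at each group mean (n = 3 per group). Injured libraries lie below all uninjured ones in 8 windows, and the second start of Klf10 (59.5 against 48 on average) is the window that passed the test.

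Klf3, the CtBP-binding repressor, has 2 starts (chr5:64803388 and chr5:64812339). Its first start held 53.9, 55 and 65.2 CPM in the 3 uninjured libraries, in the order of their replicate numbers, and 49, 50.5 and 52.7 in the injured ones. Its second start held 34.1, 35.4 and 50.2 against 30, 29.1 and 31. The injured libraries were lower at both without overlap, and the log2 changes of −0.20 (SE 0.0825) and −0.42 (SE 0.129) did not pass the threshold (adjusted p = 0.18 and 0.089). With DESeq2 the second start was called (adjusted p = 0.0274). Uninjured replicate 3 was the highest library at both starts.

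Among the genes known mainly as activators, Klf7 was the closest to a call. The Klf4 window (start chr4:55532466) held 56.3, 50.8 and 51.4 CPM before and 45.8, 48.6 and 48.1 after injury (log2 change −0.15, SE 0.0721, adjusted p = 0.232). The Klf5 window (start chr14:99298691) held 57.8, 54.5 and 54.7 against 46.9, 51.2 and 48.1 (log2 change −0.19, SE 0.0703, adjusted p = 0.127). Both were lower without overlap and neither was called. The Klf6 window (start chr13:5861482) held 60.7, 59.1 and 57.3 against 45.6, 57.6 and 54.9, and the groups overlapped (log2 change −0.17, adjusted p = 0.275). The Klf7 window (start chr1:64122282) held 64.3, 63.5 and 64.5 against 54.5, 51 and 55.8. Its groups were well separated, and its log2 change of −0.25 (SE 0.0682) had an adjusted p of 0.0517. In HBC-like cells alone the Klf7 window passed the test (log2 change −0.27, adjusted p = 0.0391). It also passed without injured replicate 3, without the filter and with DESeq2 (adjusted p = 0.0406, 0.0415 and 0.0154) and with scaling to 10 kb bins or to total cut sites (adjusted p = 0.00017 and 0.0023). It did not pass with RLE scaling, without the shared or the largest barcodes, or without both replicate 3 libraries (adjusted p = 0.0602, 0.0593, 0.0673 and 0.074), nor without any other single library (adjusted p = 0.0972 to 0.167).

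Of the genes whose proteins bind SIN3A, Klf10 changed at 1 start and Klf9 at none. The Klf9 window (start chr19:23141226) held 38.6, 39.6 and 47.7 CPM against 41.3, 39.2 and 42.1, with a log2 change of −0.04 (SE 0.0879, adjusted p = 0.821). The first start of Klf10 (chr15:38300706) held 65.4, 59.5 and 68.5 against 59.9, 59.5 and 70.4, a log2 change of −0.03 (adjusted p = 0.888). These were the windows with the least change, and the sign of both depended on the setting. The second start of Klf10 (chr15:38299082) held 61.7, 58.6 and 58.1 before and 43.7, 50.1 and 50.1 after injury. It fell by 0.31 on the log2 scale (SE 0.076, adjusted p = 0.0358), and the windows of the 2 Klf10 starts overlap in part. The call was kept in HBC-like cells alone (log2 change −0.43, adjusted p = 0.00452) and without the shared barcodes, the largest barcodes or both replicate 3 libraries (adjusted p = 0.0426, 0.046 and 0.0196). It was lost without uninjured replicate 1, uninjured replicate 2, injured replicate 1 or injured replicate 2 (adjusted p = 0.118, 0.104, 0.142 and 0.0854). Klf13 has 3 starts (chr7:63938915, chr7:63936301 and chr7:63924870). The first held 73.5, 76.5 and 74.3 CPM against 73, 72.9 and 67.4, and the second 26.1, 23.9 and 29 against 23.8, 20.9 and 22.4. The third, within the gene, held 80.4, 68 and 55.3 against 59.2, 46.5 and 48.5. The log2 changes were −0.07, −0.23 and −0.39 and none was called (adjusted p = 0.562, 0.188 and 0.127). The third was called by DESeq2, without uninjured replicate 3 and without both replicate 3 libraries (adjusted p = 0.0185, 0.0146 and 0.0045). The second start of Klf13 was the least open of the 12 windows, at percentile 76.5.

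In HBC-like cells alone, 2 of the 12 windows were called, both lower, where 4.94% of windows were called higher and 3.13% lower. Over the whole gene body plus 2000 bp, none of the 8 genes was called, with log2 changes from −0.40 at Klf3 (adjusted p = 0.0598) and −0.35 at Klf13 (adjusted p = 0.0534) to −0.02 at Klf9.

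Away from the promoters the KLF loci held tiles that changed several-fold in both directions. The 8 loci held 1081 open tiles, those with at least 5 times the cut sites of the median tile of the genome, of which 888 passed the filter on low counts. After injury 37 of the 888 were called higher (4.17%) and 13 lower (1.46%), where 5.48% of 406452 open tiles of the genome were called higher and 1.26% lower. Groups did not overlap at 117 tiles that were higher and 108 that were lower, against 15.6% and 9.72% of all tested tiles. The share of called tiles was thus near that of the genome over the 8 loci together. No tile touching a promoter window of the KLF genes was higher and 2 of 58 were lower, at Klf7 and Klf10. All 37 higher tiles and 11 of the lower ones lay among the 830 tiles outside these windows. A higher tile within Klf13 has its middle 893 bp from the start of E030018B13Rik, whose promoter window it touches. Adjacent tiles are not independent, and the 37 higher tiles formed 25 separate stretches and the 13 lower ones 10. In 6 of the 37 higher tiles the uninjured mean, and in 1 of the 13 lower ones the injured mean, was below 0.23 CPM, the mean level at which a tile counted as open. By these TMM-scaled means the 7 tiles were open only through the group in which they were high, so that their calls support nothing further. The level itself was set on unscaled cut sites per 1000000, so tiles close to it may fall on the other side. Other called tiles passed the filter on low counts only with the libraries of the group in which they were high, and are marked where named below. Their number was not counted, and their calls are likewise a description. For 11 of the higher tiles and 2 of the lower ones another coding gene has the nearest start.

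The loci differed among themselves. Klf6 had the largest share of higher tiles, 12 of 97 (12.4%), and no lower tile. Klf10 had 5 higher and 2 lower of 90, Klf7 had 6 and 1 of 140, Klf13 had 8 and 7 of 202, and Klf5 and Klf9 had 3 higher tiles each, of 91 and 92, and none lower. Klf3 had 3 lower of 111 and none higher. At Klf4 none of 65 tiles was called. The difference between loci was not tested, since tiles of a locus share their source.

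**Figure D2:**
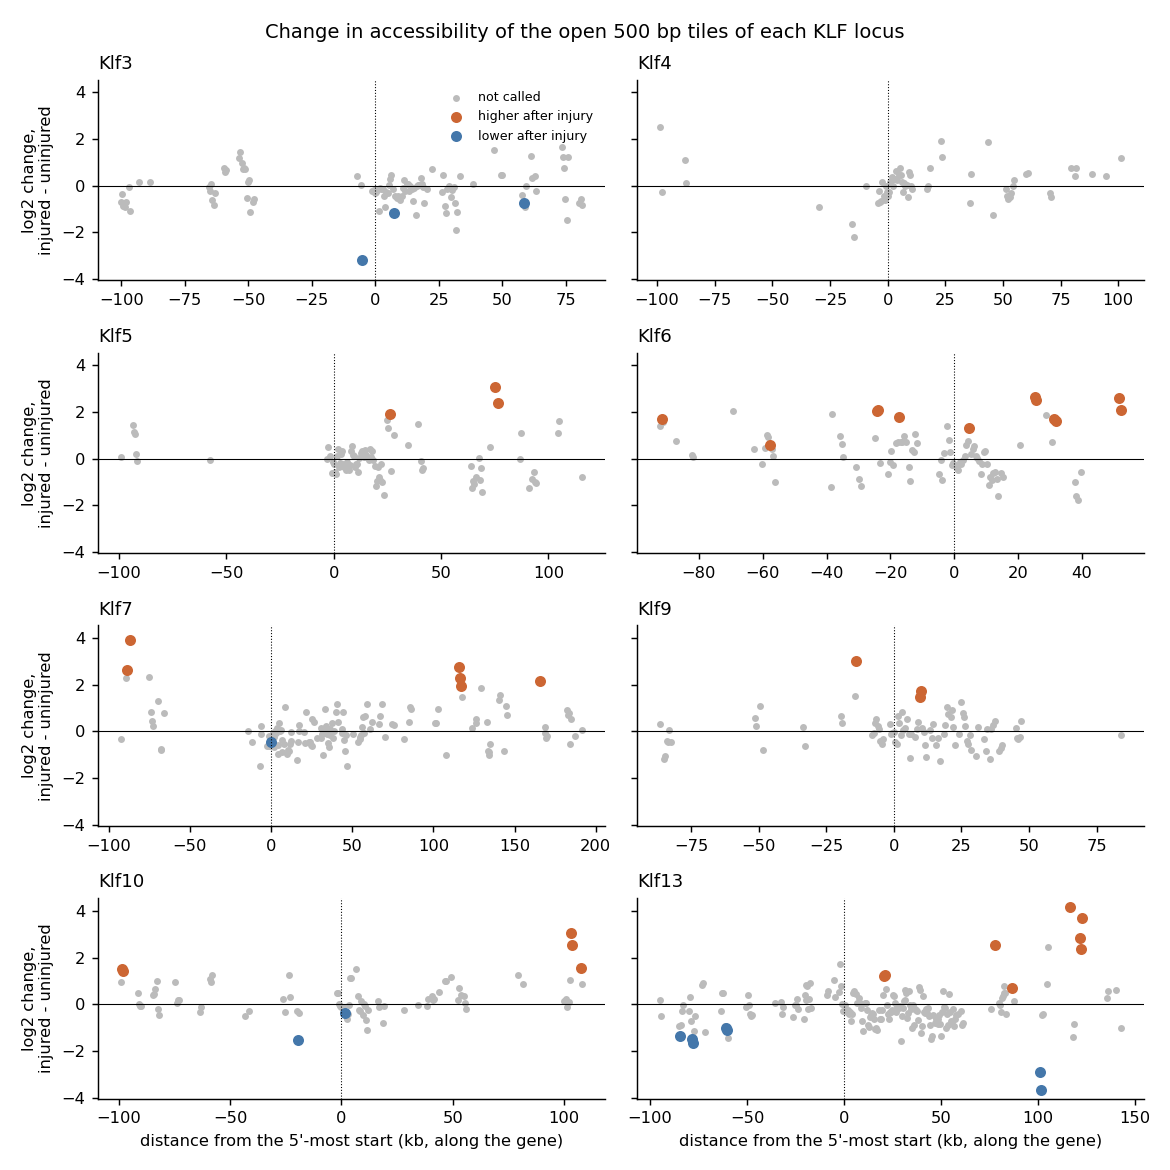
Log2 change after injury (injured minus uninjured, vertical axis) of every tested open tile against its distance from the 5′-most start in kb, with 1 panel per locus. Called tiles are coloured (37 higher in orange, 13 lower in blue) and the tiles next to the start (dotted line) lie near or below 0.

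The counts depended on the libraries. In HBC-like cells alone, 50 tiles were higher and 30 lower, where 9.5% of open tiles were called higher and 3.44% lower. Per locus this gave 14 higher and 1 lower at Klf6, 9 and 3 at Klf7, 8 and 4 at Klf10, 8 and 12 at Klf13, 3 and 2 at both Klf4 and Klf9, 3 and 0 at Klf5, and 2 and 6 at Klf3. Without the barcodes found in more than 1 library 35 tiles were higher and 17 lower (5.19% and 1.75% of all open tiles tested), and without the largest barcodes 35 and 13 (4.87% and 1.39%). Without both replicate 3 libraries 82 were higher and 48 lower, where the shares over the genome also rose to 11.4% and 5.21%. Scaling to 10 kb bins, which shifted the median of all tiles from 0.06 to −0.36, gave 20 higher and 57 lower (3.26% and 4.89% over the genome), and scaling to total cut sites (median −0.11) gave 31 and 34 (4.41% and 2.42%). Leaving out a single library gave 16 higher and 1 lower without uninjured replicate 1, where 1.97% and 0.175% of all open tiles were called. It gave 9 and 3 without uninjured replicate 2 (1.65% and 0.189%), and 43 and 13 without uninjured replicate 3 (4.78% and 1.67%). Of the injured libraries, leaving out replicate 1 gave 11 and 8 (1.51% and 0.65%), replicate 2 gave 5 and 1 (1.01% and 0.142%) and replicate 3 gave 60 and 33 (7.53% and 2.37%). Without injured replicate 2 the 5 higher tiles were 3 at Klf6 and 2 at Klf7.

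Klf6, an early response factor, opened on both sides of its promoter. The tile 23.7 kb upstream (chr13:5837501-5838000, intergenic) held 2.39, 2.53 and 2.33 CPM before injury and 12.1, 11.3 and 7.23 after it. Every injured library was far above the uninjured ones, and the fitted change was 4.21-fold (log2 2.07, SE 0.222, adjusted p = 0.00159). The tile 31.3 kb downstream (chr13:5892501-5893000, in an intron of the noncoding gene Gm47507) held 3.53, 3.15 and 3.32 against 15.4, 9.93 and 6.78, a change of 3.23-fold (log2 1.69, SE 0.266, adjusted p = 0.00472). Both kept their call under the 19 alternatives run over all or HBC-like cells, but not in cells of cluster 2 alone, described below. The tile 4.77 kb downstream, in an intron of Klf6 (chr13:5866001-5866500), held 4.54, 4.27 and 3.08 against 14.3, 8.7 and 6.56, a change of 2.51-fold (log2 1.33, SE 0.276, adjusted p = 0.0159). Injured replicate 1 was the highest library at all 3 tiles. The call of the intronic tile was lost without uninjured replicate 1, uninjured replicate 2, injured replicate 1 or injured replicate 2 (adjusted p = 0.06, 0.0915, 0.107 and 0.0895) and with scaling to 10 kb bins (adjusted p = 0.0826). When adjoining open tiles were merged into a region the direction turned (log2 change −0.14, adjusted p = 0.505). The other 9 higher tiles of this locus had log2 changes between 0.56 and 2.65.

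At the other genes known mainly as activators, the named distal tile was higher in every injured library, and it passed the test at Klf5 and Klf7. At Klf7, the neuronal family member, the tile 117 kb downstream (chr1:64005001-64005500, intergenic, past the end of the gene) held 2.2, 2.18 and 3 CPM against 12.3, 8.84 and 7.73. The groups were far apart, and the change of 3.9-fold (log2 1.96, SE 0.231, adjusted p = 0.00172) kept its call under the same 19 alternatives. At Klf5, of basal proliferating epithelium, the tile 75.1 kb downstream (chr14:99373501-99374000, intergenic) held 0.189, 0.265 and 0.902 against 4.79, 4.99 and 2.4. It was nearly closed in uninjured replicates 1 and 2, with 3 and 9 cut sites, and rose 8.35-fold (log2 3.06, SE 0.519, adjusted p = 0.00631), with the call lost without injured replicate 2 (adjusted p = 0.0592). The tile passed the filter on low counts only with its injured libraries, so its change and calls are given as a description. Without uninjured replicate 3 its log2 change was 4.06. At Klf4, the differentiation factor, the tile with the smallest p, 43.7 kb downstream (chr4:55488501-55489000, intergenic), held 0.63, 0.236 and 0.553 against 2.61, 1.28 and 1.12. The groups did not overlap, but the log2 change of 1.87 (SE 0.508) had an adjusted p of 0.0502. The tile passed the filter on low counts only with its injured libraries, so its change and calls are given as a description. It was called in HBC-like cells alone (log2 2.05, adjusted p = 0.0159), without injured replicate 3 (adjusted p = 0.0175) and without both replicate 3 libraries (adjusted p = 0.00692), and by DESeq2 (adjusted p = 0.0166). It was not called on leaving out any other single library, and the log2 change was 1.26 without injured replicate 1 and 1.47 without uninjured replicate 2 (adjusted p = 0.341 and 0.231).

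**Figure D3:**
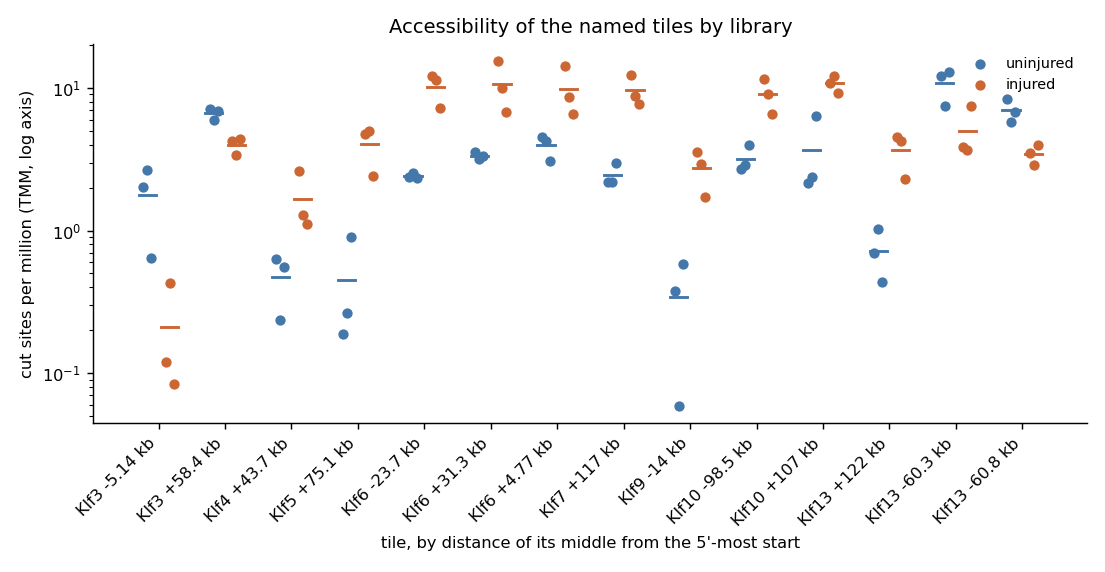
CPM (TMM, log axis) in the 14 named tiles, with 1 point per library and a bar at each group mean (n = 3 per group). The groups do not overlap at any of them: 10 tiles are higher and 4 lower in the injured libraries. Tiles were named for the smallest p or, among called tiles, only where the groups did not overlap. The separation thus follows in part from the choice.

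The SIN3A-binding members had tiles in both directions. At Klf9 the tile 14 kb upstream (chr19:23127001-23127500, intergenic) held 0.378, 0.0589 and 0.582 CPM against 3.57, 2.95 and 1.73. Uninjured replicate 2 had 2 cut sites there, and the tile passed the filter on low counts only with its injured libraries. Its change and calls are therefore given as a description. The change was 8.11-fold (log2 3.02, SE 0.598, adjusted p = 0.0127). This call was lost without replicate 1 of the uninjured group or replicate 1 or 2 of the injured group (adjusted p = 0.0615, 0.0597 and 0.0836). Its log2 change was 2.41 without uninjured replicate 2 and 3.91 without uninjured replicate 3. The other pair of higher tiles at Klf9 lay side by side in an intron, 9.52 and 10 kb into the gene, with log2 changes of 1.48 and 1.71 (adjusted p = 0.0298 and 0.015). The first was not called without any 1 of the libraries other than injured replicate 3 (adjusted p = 0.0527 to 0.211), and the second was lost on leaving out uninjured replicate 2 or either of injured replicates 1 and 2 (adjusted p = 0.0994, 0.11 and 0.115). The 3 higher tiles are 3.26% of the Klf9 tiles tested, below the 5.48% of the genome, and the median log2 change of the locus was −0.03.

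At Klf10, the TGF-beta-induced member, the tile 98.5 kb upstream (chr15:38399001-38399500, in an intron of the noncoding gene Gm41307) held 2.71, 2.86 and 3.98 CPM against 11.6, 9.08 and 6.56. All injured libraries were higher, with a change of 2.84-fold (log2 1.50, SE 0.244, adjusted p = 0.00531), and the call was lost without uninjured replicate 2 or injured replicate 2 (adjusted p = 0.0581 and 0.0597). The tile 107 kb downstream (chr15:38193001-38193500, in an intron of the noncoding gene Gm35167 and nearer to the start of Odf1 than to Klf10) held 2.14, 2.39 and 6.4 against 10.8, 12.2 and 9.27 (2.89-fold, log2 1.53, SE 0.344, adjusted p = 0.0225). Uninjured replicate 3 stood apart from the other uninjured libraries, and the log2 change was 2.22 without it. Its call was lost without uninjured replicate 1, uninjured replicate 2, injured replicate 1 or injured replicate 2 (adjusted p = 0.0948, 0.129, 0.0721 and 0.152), with scaling to 10 kb bins (adjusted p = 0.0931) and when merged into a region (adjusted p = 0.0865). The lower tile outside the windows, 19.5 kb upstream in an intron of Gm35248, held 2.52, 3.39 and 2.21 against 0.839, 0.523 and 1.37 (log2 change −1.55, adjusted p = 0.036). Its call was lost without replicate 1 or 2 of either group (adjusted p = 0.0959 to 0.148).

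Klf13, known as a regulator of chemokine genes in lymphocytes, had lower tiles upstream and tiles of both directions downstream. The neighbouring tiles 60.3 and 60.8 kb upstream (chr7:63999001-63999500 and chr7:63999501-64000000, intergenic) held 12.2, 7.45 and 12.9 CPM against 3.86, 3.66 and 7.42, and 8.38, 5.77 and 6.8 against 3.5, 2.9 and 3.96. They fell by 1.11 and 1.00 on the log2 scale (SE 0.286 and 0.215, adjusted p = 0.0402 and 0.018). The first call was lost without uninjured replicate 1 or 3 or injured replicate 1 or 2 (adjusted p = 0.151, 0.0997, 0.0736 and 0.131), and the second without uninjured replicate 1 or injured replicate 2 (adjusted p = 0.102 and 0.0882). Of the 7 lower tiles of this locus, 5 lay upstream, between 60.3 and 84.3 kb from the start. The other pair lay side by side downstream, nearer to the start of E030018B13Rik, and included the tile with the largest decrease of all 8 loci, named here after its values were seen. That tile, 102 kb from the start, held 5.67, 3.06 and 0.902 against 0.312, 0.143 and 0.251 (log2 change −3.66, adjusted p = 0.00698), and the call was lost without injured replicate 2 (adjusted p = 0.0552). The tile passed the filter on low counts only with its uninjured libraries, so its change and calls are given as a description. Without uninjured replicate 1 its log2 change was −3.02. A tile 117 kb downstream of Klf13, likewise named after its values were seen, held 0.126, 0.0589 and 0 against 0.863, 0.856 and 1.14 CPM, from 2, 2 and 0 cut sites in the uninjured libraries. It counted as open, and was tested, only through its level in injured libraries, so its change is given as a description. The tile 122 kb downstream (chr7:63816501-63817000, intergenic) held 0.693, 1.03 and 0.436 against 4.55, 4.23 and 2.29. It rose 5.08-fold (log2 2.35, SE 0.406, adjusted p = 0.00682), and the call was lost without injured replicate 2 (adjusted p = 0.065). All 8 higher tiles of this locus, of which 2 lie within Klf13, are nearer to the start of E030018B13Rik than to one of Klf13.

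Klf3 was the member whose called tiles were all lower in the main fit. Tiles of both directions were called there in HBC-like cells alone and without both replicate 3 libraries. The tile 5.14 kb upstream of its first start (chr5:64798001-64798500, in an intron of the noncoding gene Gm20033) held 2.02, 2.65 and 0.64 CPM in uninjured replicates 1 to 3. In injured replicates 1 to 3 it held 0.12, 0.428 and 0.0837, from 5, 9 and 3 cut sites. Every injured library was lower and the injured mean was below the level of an open tile, so that the tile was tested only through its uninjured level. The change and calls of this tile are therefore given as a description and support nothing further. The level was 9.14-fold higher before injury (log2 change −3.19, SE 0.698, adjusted p = 0.0198). The call was lost without uninjured replicate 1, uninjured replicate 2 or injured replicate 1 (adjusted p = 0.078, 0.1 and 0.0736) and when merged into a region (adjusted p = 0.0538), and the log2 change was −4.11 without injured replicate 2. The tile 58.4 kb downstream (chr5:64861501-64862000, intergenic) held 7.12, 5.92 and 6.86 against 4.24, 3.37 and 4.38, a smaller and less certain change. It fell by 0.72 on the log2 scale (SE 0.194, adjusted p = 0.0479), and the call was kept only without injured replicate 3 when single libraries were left out (adjusted p = 0.0331, and 0.0687 to 0.18 without the others).

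The AP-1 site was more frequent among the KLF tiles called higher than among those called lower, as over the genome. Of the 37 higher tiles 24 held TGANTCA (64.9%), and of the 13 lower ones 1 did (7.69%). All motif counts here include the 6 higher tiles and 1 lower tile that were open only through the group in which they were high. They also include tiles that passed the filter on low counts only with the libraries of that group. The counts were not repeated without these tiles, so they are a description. Over the genome it was present in 20.3% of the open tiles tested, in 59.7% of those called higher and in 7.41% of those called lower. The KLF tiles thus had it about as often as the called tiles of the genome. By locus, 9 of 12 called tiles at Klf6 held the motif, 3 of 3 at Klf5, 4 of 7 at Klf7, 2 of 3 at Klf9, 2 of 7 at Klf10, 5 of 15 at Klf13 and 0 of 3 at Klf3. The KLF/SP motif CCNCNCCC was in 18 of the 37 higher tiles (48.6%) and 9 of the 13 lower ones (69.2%), against 43.9% of all tested tiles, 42% of those called higher and 47.8% of those called lower. GGAATG, bound by TEAD factors, was in 17 higher tiles (45.9%) and 1 lower tile (7.69%), against 25.9% of tested tiles, 29.5% of those called higher and 29.7% of those called lower. TGTGGT, bound by RUNX factors, was in 22 higher tiles (59.5%) and 4 lower ones (30.8%), against 33.3%, 40.4% and 28.7%. CAGACA, bound by SMAD factors, was in 22 higher tiles (59.5%) and 6 lower ones (46.2%), against 39.9%, 42.6% and 36.1%. All were searched on both strands, and a match is a description of the sequence, not of binding.

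The share of cut sites outside the promoter windows had a higher mean in injured libraries at all 8 KLF loci, without passing the test at any. The mean was also higher at 67% of 16328 gene loci counted in the same way. Of the cut sites in the open tiles of the Klf10 locus, 51%, 51.2% and 52.6% lay outside the promoter windows of Klf10 in uninjured libraries and 63.9%, 61% and 60.6% in injured ones. The difference was 10.2 percentage points, and 5.94 with a flank of 50 kb in place of 100 kb. At Klf7 the distal share went from 64.5% ± 1.15 (SD, n = 3) to 72.9% ± 3.01 and at Klf6 from 76.6% ± 1.79 to 83.5% ± 3.28. At Klf9 it went from 77.4% ± 1.65 to 80% ± 0.352. The injured libraries were above all uninjured ones at these 4 loci, as they were at 28.7% of all gene loci, and below them at none, against 7.21%. At the other 4 loci, Klf3, Klf4, Klf5 and Klf13, the groups overlapped and the means differed by 3.2 to 4.62 points in the same direction. Single libraries moved these values: the difference at Klf13 was 1.33 without injured replicate 3. At Klf4 it was 1.64 when uninjured replicate 2 was left out, 2.2 when injured replicate 1 was and 5.33 when injured replicate 2 was. At Klf5 it was 2.64 without uninjured replicate 1 and 7.16 without uninjured replicate 3, and at Klf3 2.3 without uninjured replicate 3. With 3 against 3 libraries an exact permutation test cannot give less than p = 0.1, which was the two-sided p at Klf6, Klf7, Klf9 and Klf10 (0.2 after adjustment over the 8 loci), so none passed. The share of all cut sites in promoters of coding genes fell in the same libraries, as given above, and its part in this was not tested.

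**Figure D4:**
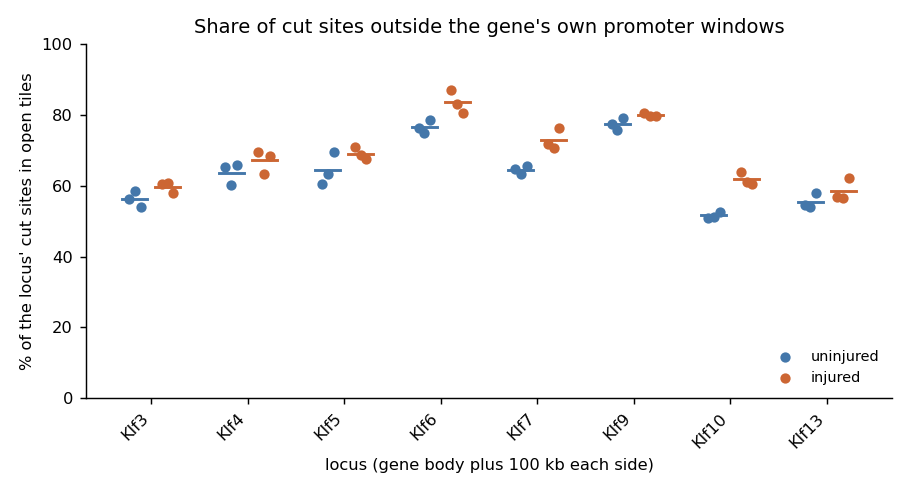
Percentage of the cut sites in each locus' open tiles that lie outside the gene's own promoter windows, with 1 point per library and a bar at each group mean (n = 3 per group). The injured libraries are all above the uninjured ones at Klf6, Klf7, Klf9 and Klf10, and the groups overlap at the other loci.

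The named tiles, 9 of the 37 higher and 4 of the 13 lower ones and the uncalled Klf4 tile, were also read by cluster of cells. They were chosen for their difference between the groups, and cells were clustered on open regions that include them, so the levels by cluster are a description without a test. Clusters 1 and 3 (1081 HBC-like cells) came mostly from uninjured libraries, clusters 11, 12 and 13 (1422 cells) mostly from injured ones, and cluster 2 (969 cells) from all 6. Cluster 2 is called by its number, since its leading genes were Bpifa1, Depp1 and Reg3g. Bpifa1 and Reg3g are known for proteins secreted by epithelia, and none of the leading genes was an HBC marker. The HBC list had the highest median of the lists in cluster 2, so its cells are included where HBC-like cells are given alone, and that fit was not repeated without them. The Klf6 tile 23.7 kb upstream held 2.6 CPM in clusters 1 and 3, 6.42 in cluster 2 and 14.2 in clusters 11 to 13, and 0.705 or less in precursor-like, neuron-like and sustentacular-like cells. The Klf7 tile 117 kb downstream held 2.22, 7.99 and 12.9 in these 3 groups of cells, and the Klf10 tile 98.5 kb upstream 1.96, 5.59 and 14.1. Within cluster 2 the libraries spread widely, from 1.69 in uninjured replicate 3 to 10.2 in injured replicate 2 at the Klf6 tile. The Klf10 tile 107 kb downstream differed in that cluster 2 was as high as clusters 11 to 13 (12.8 and 12.9, against 1.73 in clusters 1 and 3). The lower Klf3 tile 5.14 kb upstream held 3.93 CPM in clusters 1 and 3 and 0.246 or less in the other groups described. The Klf13 tile 60.3 kb upstream held 12 in clusters 1 and 3, 13.3 in cluster 2 and 2.57 in clusters 11 to 13. Cluster 14, with 167 of its 186 cells from uninjured replicate 3, held 5.07, 5.81 and 6.46 at the Klf6 tile 23.7 kb upstream, the Klf7 tile and the Klf10 tile 98.5 kb upstream, above clusters 1 and 3. Its leading genes also include Depp1 and Reg3g, and its cells too are among the HBC-like cells given alone.

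**Figure D5:**
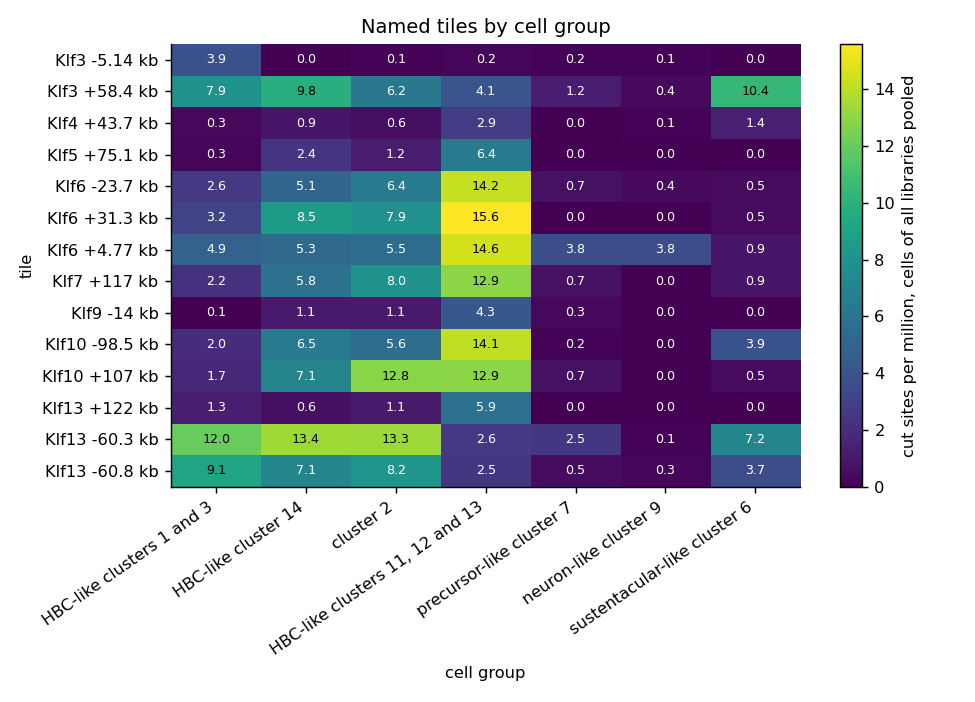
CPM in the 14 named tiles (rows, by distance from the 5′-most start) in 7 groups of cells (columns), pooled over libraries. The higher tiles are brightest in HBC-like clusters 11, 12 and 13, and the lower Klf3 tile 5.14 kb upstream in clusters 1 and 3.

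Within cluster 2, where cells of both groups could be compared, no member tile was higher and 1, at Klf5, was lower, where 0.412% of the 102267 tiles tested were called higher and 0.0606% lower. The Klf6 tile 23.7 kb upstream had a log2 change of 1.09 in these cells (adjusted p = 0.276), against 2.07 over all barcodes, the Klf6 tile 31.3 kb downstream one of 0.99 (adjusted p = 0.293) and the Klf7 tile one of 1.03 (adjusted p = 0.122). The Klf10 tiles 98.5 kb upstream and 107 kb downstream had log2 changes of −0.14 and 0.16 (adjusted p = 0.939 and 0.885). In cluster 2, 5 of the 14 named tiles did not pass the filter on low counts. No member promoter window was called in cluster 2.

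Most KLF promoter windows were open in all classes of cells, and 2 stood furthest below clusters 1 and 3 in the neuronal classes. The second start of Klf3 held 46.2 ± 10.8 CPM (SD over 3 libraries with at least 20 cells, here per total cut sites of the group) in clusters 1 and 3, 57.3 ± 12.8 (6 libraries) in cluster 2 and 27.4 ± 2.21 (3 libraries) in clusters 11 to 13. It held 8.14 ± 3.37 (5 libraries) in precursor-like cells and 4.97 and 3.89 in the 2 libraries with enough neuron-like cells. The first start of Klf3 held 34.3 ± 9.46 and 42.3 and 41.7 in these cells. The third start of Klf13 likewise held 102 ± 15.2 in clusters 1 and 3, 66.9 ± 7.29 in cluster 2 and 52.6 ± 3.91 in clusters 11 to 13, against 25.7 ± 2.41 in precursor-like and 19.4 and 18.9 in neuron-like cells. At both genes this window is that of the last annotated start, within the gene. The second start of Klf13 held less than the third in these classes (20.7 ± 4.16 in precursor-like and 16.4 and 14.7 in neuron-like cells). It was also low elsewhere, with 28.9 ± 3.32 in clusters 1 and 3 and 21.7 ± 0.837 in clusters 11 to 13. These levels are per total cut sites, a scaling under which the median of all windows shifts by −0.26 after injury over all barcodes, so lower levels in clusters 11 to 13, mostly of injured cells, are not relative to the median window. Klf7 was as open in neuron-like cells (88.5 and 72.2) as in clusters 1 and 3 (78.1 ± 4.93), and held 46.9 ± 2.68 in clusters 11 to 13. Klf4 held 65.6 ± 8.24 in clusters 1 and 3, 55.2 ± 9.21 in cluster 2 and 45.6 ± 1.67 in clusters 11 to 13, and 31.9 and 33.2 in sustentacular-like cells. With TMM scaling the Klf4 change in HBC-like cells was −0.20 on the log2 scale and was not called (adjusted p = 0.155). Klf5 held 63.9 ± 5.97, 61.9 ± 11.7 and 46.3 ± 4.11 in clusters 1 and 3, cluster 2 and clusters 11 to 13, and 36.8 ± 7.8 in precursor-like cells. Klf6 held 70 ± 3.15, 65.9 ± 10.9 and 47.8 ± 6.42.

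The 6 gene lists held the KLF and SP family, proteins that act with KLF proteins, reported targets, and signalling and response genes related to Klf9 and Klf10. Of their 58 tested genes none was called higher and 4 lower (6.9%) at the promoter. Of all windows 2.45% were higher and 2.07% lower. Of 18 other KLF and SP genes 17 were tested, with none higher and 1 lower: Klf16 held 44.9 ± 1.18 CPM (SD, n = 3) before and 36.9 ± 1.49 after injury (log2 change −0.29, adjusted p = 0.0402). Klf2 held 60.8 ± 9.21 and 49.8 ± 0.753 and Klf11 68.5 ± 2.39 and 60.5 ± 3.94, and neither passed (adjusted p = 0.0994 and 0.159). Of 12 corepressor and coactivator genes, among them Ctbp1, Ctbp2, Sin3a and Ep300, none was called in either direction, nor was any of 5 ubiquitin ligases that act on KLF proteins or of 8 genes reported as KLF4 or KLF5 targets. Of 9 genes of TGF-beta signalling, which induces Klf10, none was higher and 2 were lower: Smad3 (39.1 ± 1.73 to 30.6 ± 1.92, log2 change −0.35, adjusted p = 0.0266) and the inhibitor Smad7 (41.6 ± 2.58 to 33.6 ± 1.61, log2 change −0.30, adjusted p = 0.0453). Of 7 genes of glucocorticoid and thyroid hormone response, Per1, a clock gene that glucocorticoids induce, was lower (57 ± 2.27 to 46.1 ± 3.25, log2 change −0.30, adjusted p = 0.0377) and none higher. The median log2 change of the 6 lists lay between −0.21 and −0.07, beside 0.01 over all windows.

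Promoters with the pattern most like each KLF gene over the 6 libraries were named by Pearson's r of log2 values, as a description over points that share their libraries and depth. Klf7 was most like Klhl23 (r = 0.999) and Reep5 (0.998), and Klf5 like Timp3 and Zfp36l1 (both 0.996). Klf13 was most like Tom1 (0.995) and Tead4 (0.984), Klf4 like Rab11fip5 (0.994) and Prc1 (0.990), and Klf6 like Zbtb34 (0.994) and Zfp423 (0.992). For Klf3 these were Rfng (0.991) and Cyld (0.989), for Klf10 Rpn1 (0.990) and Yipf1 (0.979) and for Klf9 B3gnt2 (0.987) and Mad2l1bp (0.986). Between 11 (Klf9) and 229 (Klf7) of 12236 to 12249 promoters had an r above 0.95, so the named genes are the top of a long list for Klf7 and of a short one for Klf9.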

How the data were processed

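Chromatin accessibility was measured by droplet single-cell ATAC-seq in 3 uninjured and 3 injured libraries, which the labels call biological replicates. Reads were processed with Cell Ranger 2.0.0 on mm10, per the submitters' processing notes. The deposited fragment files list each fragment with its barcode and a count of read pairs, and both ends were taken as cut sites as given, and any shift applied to them upstream is not stated by the labels. The depth of a library sets its precision: 14825320 to 44875242 cut sites, and a median of 8710 to 21702 fragments per barcode.

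From these, barcodes with at least 2000 fragments were kept and no doublet caller was run. Starts were those of protein-coding transcripts in GENCODE M21, at least 1000 bp apart. Whole cut-site counts were summed per library, filtered with filterByExpr, scaled by TMM and tested with edgeR 4.0.16 in R 4.3.3 (quasi-likelihood, 2 groups, Benjamini-Hochberg over all windows or tiles, threshold 0.05). DESeq2 1.42.0, other scalings, filters, windows and cell sets, single libraries left out and a replicate block were alternatives. Those without large or shared barcodes and without both replicate 3 libraries were chosen after seeing the data. On 23063 simulated promoters, 87.5% of 200 windows changed by log2 1 were recovered. Of 200 simulated tiles none was at log2 1 (84441 tiles tested) and 58.5% at log2 2 (84345 tested), where the real test held 406452. All simulated windows or tiles had a single common spread, and only 200 were changed. The real test called 22267 tiles higher and 5103 lower, among them one at Klf6 with a log2 change of 0.56. The shares recovered are therefore not the power of the real test.

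Cells were clustered with scanpy 1.11.5 on merged open tiles, and clusters named from marker lists. No HBC marker was among the leading genes of an HBC-like cluster, so that name rests on the list as a whole. Every start was named. For each gene the tile outside its promoter windows with the smallest p was named, and up to 2 further called tiles with the largest change, no overlap and a mean of at least 5 CPM. Of each gene list, called genes and at most 4 others with the smallest p could be named. The members and lists were chosen with earlier results of these data known. Sequences came from RefSeq tables and the GRCm38 genome.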

Additional observations from a re-analysis of the deposited data

How the results depend on the processing

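Which windows and tiles passed the threshold depended on the libraries more than their direction did. At the KLF genes, 1 promoter window was called. With only the 5′-most start of each gene, a setting that leaves out this window, the number was 0, and it was also 0 over gene bodies. It was 2 in HBC-like cells, without the filter or without both replicate 3 libraries, 4 with DESeq2, 11 with scaling to total cut sites, 12 with scaling to 10 kb bins and 0 to 2 without single libraries. Of their tiles, 37 were higher, against 20 with scaling to bins, 82 without both replicate 3 libraries and 5 to 60 without single libraries. When open tiles were merged into regions, 12 regions were higher. Regions are a larger and rarer unit (199423 over the genome, in place of 514026 open tiles), so their counts are not like those of tiles. The 13 lower tiles became 7 (merged), 30 (HBC-like cells), 34 (total cut sites), 48 (without both replicate 3 libraries), 57 (bins) and 1 to 33 (without single libraries). The cause of these differences was not tested.

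Over the genome, 549 promoter windows were higher, against 345 (5′-most start), 886 (DESeq2), 1002 (HBC-like cells), 1454 (without both replicate 3 libraries) and 115 to 1033 (without single libraries). The 464 lower windows became 274 (5′-most start), 304 (500 bp on either side), 289 (barcodes with at least 20% of cut sites in open tiles), 713 (no filter), 766 (DESeq2), 1084 (without both replicate 3 libraries), 7216 (total cut sites), 11194 (bins) and 53 to 880 (without single libraries). Of open tiles, 22267 were higher, against 9295 (merged), 13247 (bins), 42580 (without both replicate 3 libraries) and 4704 to 33958 (without single libraries). The 5103 lower tiles became 2365 (merged), 9839 (total cut sites), 10228 (HBC-like cells), 19486 (without both replicate 3 libraries), 19865 (bins) and 659 to 10685 (without single libraries). The merged counts here and above are of regions, not of tiles.

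Same-numbered libraries of the groups correlated at 0.08, 0.20 and 0.26 over promoter windows and at 0.04, 0.21 and 0.24 over tiles, so that the numbers were not taken as a pairing. Uninjured libraries each correlated best with their own number, and injured replicate 1 with uninjured replicate 2. Same-numbered libraries also came from mice of the same age, which the main test does not model. With the replicate block, 1067 promoter windows were higher and 1507 lower, 4 of the latter at the KLF genes. These were the second start of Klf3, Klf7, the second start of Klf10 and the third start of Klf13 (adjusted p = 0.014, 0.0114, 0.00838 and 0.00278). Of the tiles of the KLF loci 22 were lower with the block, a count given without the share over the genome. The Klf4 tile 43.7 kb downstream was called with it (log2 change 1.78, adjusted p = 0.0291).

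Some directions reversed. The first start of Klf10 had log2 changes from −0.11 to 0.02 when single libraries were left out, 0.02 with 500 bp on either side and 0.00 without shared barcodes or low-signal barcodes. Klf9 had −0.10 to 0.06 when single libraries were left out, 0.05 without both replicate 3 libraries and 0.10 with 500 bp on either side. The intronic Klf6 tile, called at 1.33, had −0.14 when merged with its neighbours into a region. Tiles with few cut sites limit what could be called.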
